A study of Mus musculus with 9 samples.

Results

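The distal part of mouse chromosome 2 carries a dense cluster of zinc finger genes, and 10 neighbouring genes of it are described here across liver RNA-seq of 3 groups of mice. The genes were Gm14421, Gm14410, Gm14418, Zfp970, Gm14403, Gm14325, Gm14327, Gm14326, Zfp971 and Gm26869, taken by name from the 16755 genes of the authors' table. They lay on chromosome 2 from 177053516 to 178034022 in mm10 coordinates, a span of 0.981 Mb. They were chosen by their position together with their values in the 3 groups, that is, with these same group means in view, so all differences between groups below are descriptions. The table held 7 more genes of the span, and these had the lower levels. Among the chosen genes the lowest mean over the 3 groups was 1.42, in Gm14418, and among the others the highest was 0.904, in Gm14412.

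The control liver came from 3 untreated Scd2f/f mice. Scd2f/f TAL came from 3 Scd2f/f mice that had received 10 mg/kg of the carcinogen DEN (diethyl nitrosamine) when 2 weeks old and were fed WAD, a Western diet with alcohol, starting at 6 weeks. Scd2f/f;CC TAL came from 3 mice with the same treatment that also carried Col1a1-Cre, a transgene in which the promoter of Col1a1 drives Cre recombinase, which deletes the floxed exon of Scd2 in collagen-expressing cells such as activated hepatic stellate cells and portal fibroblasts. All 9 mice were C57BL/6 and carried the floxed Scd2 alleles, the controls included, so no group had an unmodified Scd2 gene. The animals were male. The labels give 4 months of WAD and call the tissue liver, while the methods text gives a longer feeding time and the study's results call it tumor-adjacent liver (TAL). For age, the study gives a range for all its mice, and an age of the control group by itself was not given in the sources used here.

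The authors' table gives 1 mean of normalized counts for each group. Values of individual mice were not in the files used, and the results of the authors' own tests in that table were left aside, so no error or test accompanies any value here. Whether a difference exceeds the variation between mice was therefore not assessed. The depth of each sample is unknown. Group means ran from 0.0348 to 76300 over all genes, and the 75th percentile was 15.5 for control liver, 15.5 for Scd2f/f TAL and 15.4 for Scd2f/f;CC TAL. For the targeted gene Scd2 the means were 2.46 for control liver, 6.47 for Scd2f/f TAL and 1.87 for Scd2f/f;CC TAL, which is 0.289 times the mean of Scd2f/f TAL. All 8 hepatocyte markers, with Alb the highest, were present in each group at means of at least 213.

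Most genes of such clusters encode proteins with a run of C2H2 zinc fingers, each of which can contact a few bases of DNA, behind a KRAB box. The KRAB box binds TRIM28, a corepressor that brings the histone H3K9 methyltransferase SETDB1 and heterochromatin protein 1 to the site, and many of these proteins silence transposable elements. The genes arose by repeated local duplication, so neighbours are close copies of one another. In mouse liver, KRAB zinc finger genes of another chromosome, Rsl1 and Rsl2, are known to restrain genes of the male expression pattern.

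The name of the cluster held for most of the 10 genes but not for all. The table called 8 of them protein coding, Gm14421 an unprocessed pseudogene and Gm26869 a lincRNA. In GENCODE M21, the annotated coding parts of 7 genes translated to at least 3 matches of the C2H2 finger pattern. Gm14326 had 15 matches, Zfp970 14, Gm14325 14, Zfp971 12, Gm14410 9, Gm14403 9 and Gm14418 8. Over its forward reading frames the pseudogene Gm14421 still held 9 matches. Gm14327 and Gm26869 held 0 in any forward frame. For Gm14327 the longest annotated coding part was 64 amino acids with a KRAB match, that is, a KRAB box without fingers. A strict KRAB pattern matched 5 genes, Gm14418, Zfp970, Gm14325, Gm14327 and Zfp971. RefSeq listed 9 of the 10 genes, without Gm26869, and called only 5 protein coding. It listed Gm14421 and Gm14418 as pseudogenes, Gm14327 as a transcribed pseudogene and Gm14403 as a lncRNA. RefSeq also gives Etohi1 as a synonym of Zfp971.

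The 6 genes with a RefSeq promoter had nearly the same sequence around a CCAAT box, the element that the factor NF-Y is known to bind. These 115 bases are shown because they are what the promoters of genes with different levels and ratios have in common. Each runs 5′ to 3′ on the strand of its gene, and capitals mark the CCAAT box. In GRCm38.p6 the windows lie at chr2:177206471-177206585 on the minus strand for Gm14410, chr2:177464603-177464717 on the plus strand for Zfp970, chr2:177498072-177498186 on the plus strand for Gm14403, chr2:177840368-177840482 on the minus strand for Gm14325, chr2:177957339-177957453 on the minus strand for Gm14326 and chr2:178023136-178023250 on the plus strand for Zfp971.
Gm14410: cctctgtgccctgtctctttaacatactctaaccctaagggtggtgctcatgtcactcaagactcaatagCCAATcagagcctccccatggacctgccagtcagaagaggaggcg
Zfp970: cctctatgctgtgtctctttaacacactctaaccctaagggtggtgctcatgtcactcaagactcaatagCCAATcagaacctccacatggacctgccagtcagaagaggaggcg
Gm14403: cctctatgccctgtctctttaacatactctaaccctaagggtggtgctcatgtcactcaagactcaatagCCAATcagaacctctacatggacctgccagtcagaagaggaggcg
Gm14325: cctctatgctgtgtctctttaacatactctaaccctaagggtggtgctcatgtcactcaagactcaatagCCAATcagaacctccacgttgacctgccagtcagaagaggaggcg
Gm14326: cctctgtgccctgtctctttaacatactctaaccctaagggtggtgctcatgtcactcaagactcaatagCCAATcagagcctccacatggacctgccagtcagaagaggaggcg
Zfp971: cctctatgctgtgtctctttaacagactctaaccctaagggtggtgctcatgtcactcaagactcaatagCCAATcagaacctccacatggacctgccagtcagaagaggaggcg

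Of the 115 positions, 106 were alike in all 6 windows. Zfp970 and Zfp971 differed at 1 position, and so did Gm14410 and Gm14326, while the most distant pair, Gm14410 and Gm14325, differed at 7. Counted from the RefSeq start site, the CCAAT box began at base -69 for Zfp970, -84 for Gm14403, -76 for Gm14325, -95 for Gm14326, -78 for Zfp971 and -19 for Gm14410. In GENCODE M21 Gm14410, on the minus strand, starts at 177206421, past the end of its window. Its distance to the box thus depends on the annotation. The 11 bases AGCCAATCAGA were read from the Zfp970 window as letters around the box that the windows share. Their presence in all 6 promoters follows from that choice and is no finding. They were searched with their reverse complement TCTGATTGGCT. They stood in 0.664% of the 32851 RefSeq promoters of 300 bases, or 218. Of these 218 promoters, 31 lay in the same stretch of chromosome 2, from 175206875 to 178023333. The shorter CCAAT, which these 11 bases contain, was found on either strand (ATTGG) in 37.4% of all promoters. Other genes that match the strict KRAB pattern and at least 3 fingers had 196 promoters. Of these, 61.2% held CCAAT and 6.63% the 11 bases, so neither is particular to the 6 genes. The TATA box letters TATAAA, searched on both strands, stood in 0 of the 6 promoters, in 5.1% of those 196 and in 13.6% of all. The GC box letters GGGCGG, searched in the same way, stood in 0 of the 6, in 30.6% of those 196 and in 35.7% of all.

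The transcripts themselves were also alike, which bears on every value below, since a read that matches several genes is divided among them by an estimate. Of the 45 pairs of genes, 22 had an aligned stretch of at least 500 bases between their longest transcripts, with identity from 81.8% to 97.4% and a median of 87.8%. The highest belonged to Gm14326 and Gm14410. As a measure of reads that cannot be placed, the share of 75-base stretches found in transcripts of another gene was 80.4% for Gm14410, 79.4% for Gm14327, 72.1% for Gm14326, 71.3% for Gm14421 and 70.3% for Gm14325. It was 45% for Gm14418, 32.8% for Zfp971, 30.4% for Zfp970, 15.7% for Gm14403 and 0% for Gm26869. The genes with the most distinct sequence were thus Gm26869, Gm14403 and Zfp970. The read length was not given in the sources used here. With 50-base stretches the shares were 36.1% for Gm14403, 49.7% for Zfp970, 51.1% for Zfp971 and 0% for Gm26869.

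**Figure D1:**
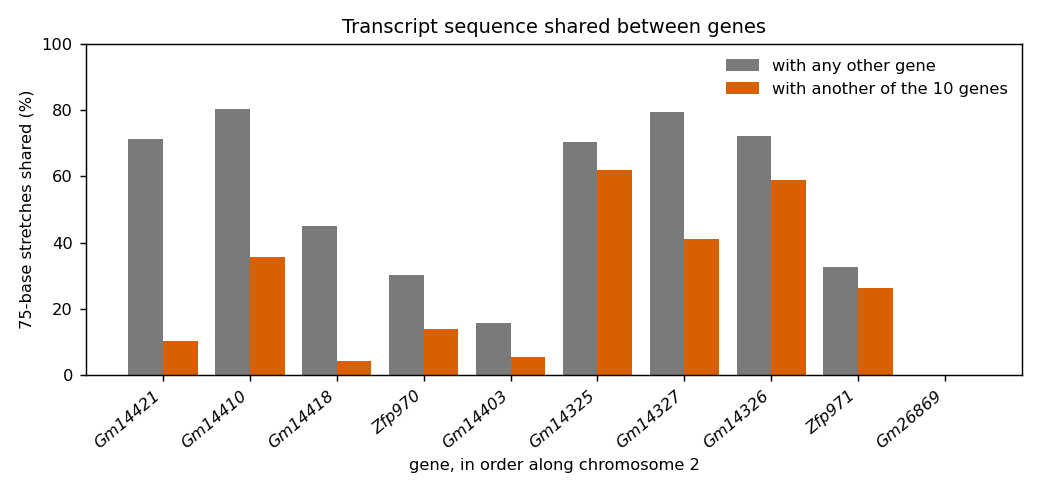
Share of the distinct 75-base stretches of each gene's GENCODE M21 transcripts, on either strand, that also occurred in transcripts of any other gene (grey) or of another of the 10 genes (orange), in percent. Gm14410 had the largest share with any gene, 80.4%, and Gm26869 had 0%.

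The partners were near. The gene that shared most 75-base stretches with Gm14421 was Gm14416, a pseudogene of the span, at 47.8%, followed by Gm14387 outside it at 46.1%. For Gm14325 it was Gm14326, at 57.7%. In all, 55 genes of chromosome 2 shared a 75-base stretch with at least 1 of the 10, and they began between 175010241 and 178067695. Zfp970 was the exception in sharing stretches with 36 genes of which 30 lay there and 6 on other chromosomes. Outside the span, Zfp967 and Zfp969 had the same 3 means to all printed digits (0.495, 0.319 and 0.552 in the 3 groups in the order given above), and so did Gm11007 and Gm2007 (1.16, 0.592 and 1.07).

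Zfp970 was the highest of the genes in all groups, also per kb of exon. On the minus strand were Gm14421, Gm14410, Gm14418, Gm14325, Gm14326 and Gm26869, and on the plus strand the rest. Zfp970 (ENSMUSG00000078866.10, from 177464733 to 177478129, 4 exons in its longest transcript) had means of 63.4 for control liver, 18.6 for Scd2f/f TAL and 19.0 for Scd2f/f;CC TAL. Both treated groups were thus alike and below the control, at a ratio of 0.293 for Scd2f/f TAL to control liver, or 3.41-fold lower. Its mean over the 3 groups was above that of 87.2% of all genes in the table.

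Gm14403 (ENSMUSG00000094786.1, from 177498215 to 177509763), which begins next to Zfp970 on the same strand, was the second highest on the same scales. Its means were 27.2 for control liver, 9.11 for Scd2f/f TAL and 9.26 for Scd2f/f;CC TAL. Scd2f/f TAL was 2.99-fold lower than control liver, and the treated groups were again close together. Zfp970 and Gm14403 together with the other 8 genes summed to 136.0 for control liver, 50.5 for Scd2f/f TAL and 52.9 for Scd2f/f;CC TAL. Zfp970 made up 46.6% of the sum in control liver and 36.9% in Scd2f/f TAL. The sum does not depend on how reads were divided among the 10, though it does on their division with copies elsewhere, and it was 62.9% lower in Scd2f/f TAL than in control liver. Without Zfp970 and Gm14403 the sum was 45.4 in control liver and 22.8 in Scd2f/f TAL, or 49.8% lower.

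The pseudogene Gm14421 (ENSMUSG00000083111.1, from 177053516 to 177056838) had means of 10.2 for control liver, 2.59 for Scd2f/f TAL and 2.25 for Scd2f/f;CC TAL. It was 3.94-fold lower in Scd2f/f TAL than in control liver. Gm14327 (ENSMUSG00000074521.9, from 177897096 to 177905784), the gene with a KRAB box and no fingers, showed the lowest ratio. Its means were 5.33, 1.08 and 1.27 in control liver, Scd2f/f TAL and Scd2f/f;CC TAL, which is 4.94-fold lower in Scd2f/f TAL than in control liver. Gm14327 and Gm14421 were also among the genes with most shared sequence, so their split from their copies is uncertain.

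The lincRNA Gm26869 (ENSMUSG00000097879.1, from 178023808 to 178028736) had means of 5.08 for control liver, 1.91 for Scd2f/f TAL and 2.39 for Scd2f/f;CC TAL, or 2.66-fold lower in Scd2f/f TAL than in control liver. Its whole length of 4929 bases lay within Zfp971 on the opposite strand, with 0 bases of exon in common. The library kit did not mark strand, so reads from an intron of Zfp971 and from Gm26869 cannot be told apart. Zfp971 (ENSMUSG00000074519.11, from 178023284 to 178034022) had means of 5.44, 3.99 and 4.37 in control liver, Scd2f/f TAL and Scd2f/f;CC TAL. Scd2f/f TAL was 1.36-fold lower than control liver for Zfp971, a smaller difference of means than that of Gm26869 inside it. Gm14327 likewise overlapped Zfp972 on the opposite strand over 2445 bases, with 0 bases of exon in common.

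**Figure D2:**
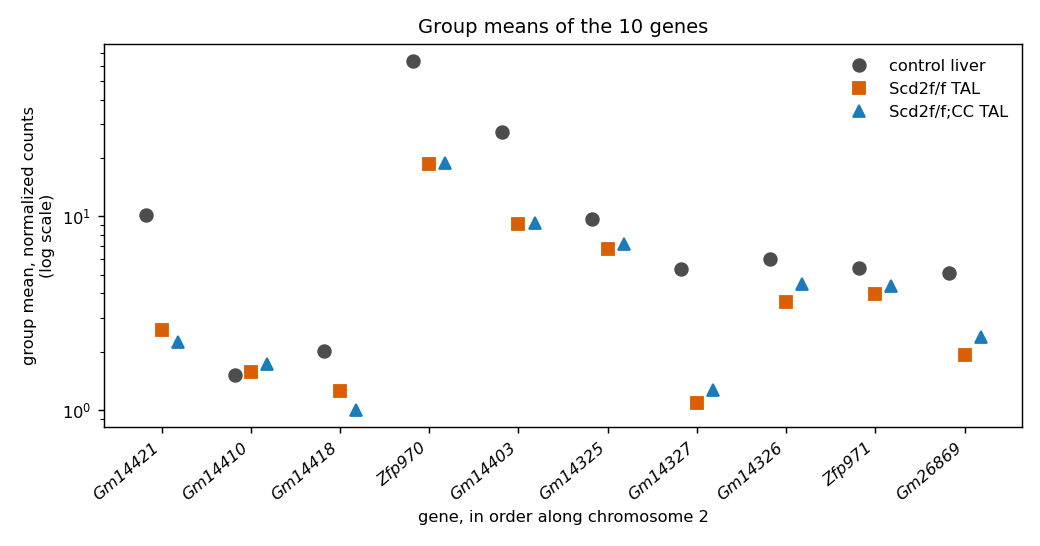
Group means of normalized counts from the authors' table (vertical axis, log scale) for the 10 genes in order along the chromosome, with 1 point for control liver (circle), Scd2f/f TAL (square) and Scd2f/f;CC TAL (triangle), each a mean of 3 mice without error. Control liver was highest for 9 genes, most widely for Gm14327, Gm14421, Zfp970 and Gm14403, and the squares and triangles lay close together.

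Of the remaining genes, none reached a 2-fold difference between Scd2f/f TAL and control liver. Gm14325 (ENSMUSG00000095362.7, from 177831791 to 177840336) had means of 9.75 for control liver, 6.76 for Scd2f/f TAL and 7.21 for Scd2f/f;CC TAL. For Gm14326 (ENSMUSG00000078862.10, from 177935993 to 177957297) they were 6.03, 3.61 and 4.45 in the same order. Both encode long runs of fingers, and Scd2f/f TAL was 1.44-fold lower than control liver for Gm14325 and 1.67-fold lower for Gm14326. Gm14418 (ENSMUSG00000078867.9, from 177387124 to 177398320) had means of 2.01, 1.25 and 1, a step down from each group to the next. Gm14410 (ENSMUSG00000078870.9, from 177183453 to 177206421) was the exception. Its means were 1.52 for control liver, 1.57 for Scd2f/f TAL and 1.72 for Scd2f/f;CC TAL. Its Scd2f/f TAL mean was thus 1.03 times that of control liver. Gm14410 shared 80.4% of its 75-base stretches with other genes, so its split from its copies is uncertain.

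Per kb of annotated exon, which allows genes to be compared, Zfp970 led in control liver with 29.2 normalized counts per kb, followed by Gm14403 with 16.4, Gm14325 with 6.03, Gm14421 with 5.21, Gm14327 with 3.67, Zfp971 with 2.54, Gm14326 with 2.11, Gm26869 with 1.44, Gm14418 with 0.823 and Gm14410 with 0.634. The order of the first 3 was the same in Scd2f/f TAL, at 8.56 per kb for Zfp970, 5.50 for Gm14403 and 4.18 for Gm14325. Below them the order changed. In Scd2f/f TAL, Zfp971 with 1.86 per kb stood above Gm14421 with 1.32, and Gm14410 with 0.655 above Gm26869 with 0.542. Which neighbours in these orders differ beyond the spread between mice was not tested.

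Scd2f/f TAL and control liver differ in DEN, in WAD and in nearness to tumors, and the age of the controls was not given. These cannot be told apart here. A lower mean in Scd2f/f TAL than in control liver was found for 9 of the 10 genes, where 46.7% of expressed genes (the 11784 whose mean over the groups reached 1) were lower. At least 2-fold lower were 5 of the 10 (Gm14327, Gm14421, Zfp970, Gm14403 and Gm26869), against 2.89% of expressed genes and 4.69% of all genes. As the genes were chosen with these means in view, nothing is read from the difference of the shares. The log2 ratios ran from -2.30 in Gm14327 to 0.05 in Gm14410 with a median of -1.08, and the median over expressed genes was 0.03. Of the expressed genes, 0.467% had a lower log2 ratio than Gm14327, and 0.883% a lower one than Zfp970. Both were chosen with the same means in view, so these ranks are no finding. In this bulk tissue, fewer cells of a type and less RNA per cell cannot be told apart. Markers of other cell types also differed between these groups. The summed means of 6 macrophage markers were 76.2 in control liver and 278.7 in Scd2f/f TAL, all 6 at least 2-fold higher, those of 7 T and B cell markers were 1.57 and 4.73, those of 6 endothelial markers 105.1 and 142.2, and those of 9 markers of hepatic stellate cells and portal fibroblasts 200.5 and 340.8, with 8 higher and 3 of them at least 2-fold. The T and B cell markers were low, with means of at most 0.442 in control liver and 1.25 in Scd2f/f TAL. For 5 cholangiocyte markers the sums were 58.7 and 53.1, of which 1 marker alone made up 52.3 and 45.1. The summed means of 8 hepatocyte markers were 37521 and 35009, with 6 lower and 2 higher. Their part in the values of the cluster was not tested.

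The treated groups differ in the Scd2 deletion in Col1a1-expressing cells and in the Cre transgene itself. The study also reports that tumors were much reduced in Scd2f/f;CC mice. These cannot be told apart here. Between the treated groups, the means of each of the 10 genes lay within 1.25-fold of each other. Of the 10 genes, 0 were at least 2-fold higher with the deletion, against 0.645% of expressed and 1.82% of all genes. At least 2-fold lower were again 0, against 1.54% of expressed and 4.07% of all genes. Gm26869 was 1.25-fold higher, Gm14326 1.23-fold higher and Gm14327 1.18-fold higher in Scd2f/f;CC TAL. Gm14418 was 1.25-fold lower and Gm14421 1.15-fold lower in Scd2f/f;CC TAL than in Scd2f/f TAL. The median log2 ratio of the 10 genes was 0.11, with 8 higher and 2 lower, where 50.6% of expressed genes were higher and 48.4% lower, with a median of 0.01. For 79.8% of expressed genes the log2 ratio was no larger in size than the largest of the 10, that of Gm26869 at 0.32. Markers of other cells differed here as well. The summed means of 9 markers of hepatic stellate cells and portal fibroblasts were 340.8 without and 195.3 with the deletion, 4 of them at least 2-fold lower with it, and those of 5 cholangiocyte markers 53.1 and 19.1, also with 4 at least 2-fold lower. Of the cholangiocyte sums, 1 marker alone made up 45.1 and 14.8, and the others were low, at most 5.03 without and 3.52 with the deletion. For 8 hepatocyte markers the sums were 35009 without and 39313 with the deletion, with 7 higher and 1 lower. The 7 T and B cell markers, all low, summed to 4.73 and 3.37, with 2 at least 2-fold lower. Sums of 6 macrophage markers were 278.7 and 253.5, and those of 6 endothelial markers 142.2 and 142.7. The part of these markers in the values of the 10 genes was not tested.

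Set against control liver, Scd2f/f;CC TAL had the lower mean for 9 of the 10 genes, where 45.1% of expressed genes were lower. At least 2-fold lower were 6 genes, against 2.55% of expressed genes, and the median log2 ratio was -1.05 beside 0.04 over expressed genes. The log2 ratios were -2.18 for Gm14421, -2.07 for Gm14327, -1.74 for Zfp970, -1.55 for Gm14403, -1.09 for Gm26869 and -1.01 for Gm14418. In 7 of the genes the mean of the deletion group lay between those of the other groups. This comparison shares its control mice with that of Scd2f/f TAL, and the comparison of the treated groups shares the Scd2f/f TAL mice, so the likeness of both sets of ratios is not a second observation.

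**Figure D3:**
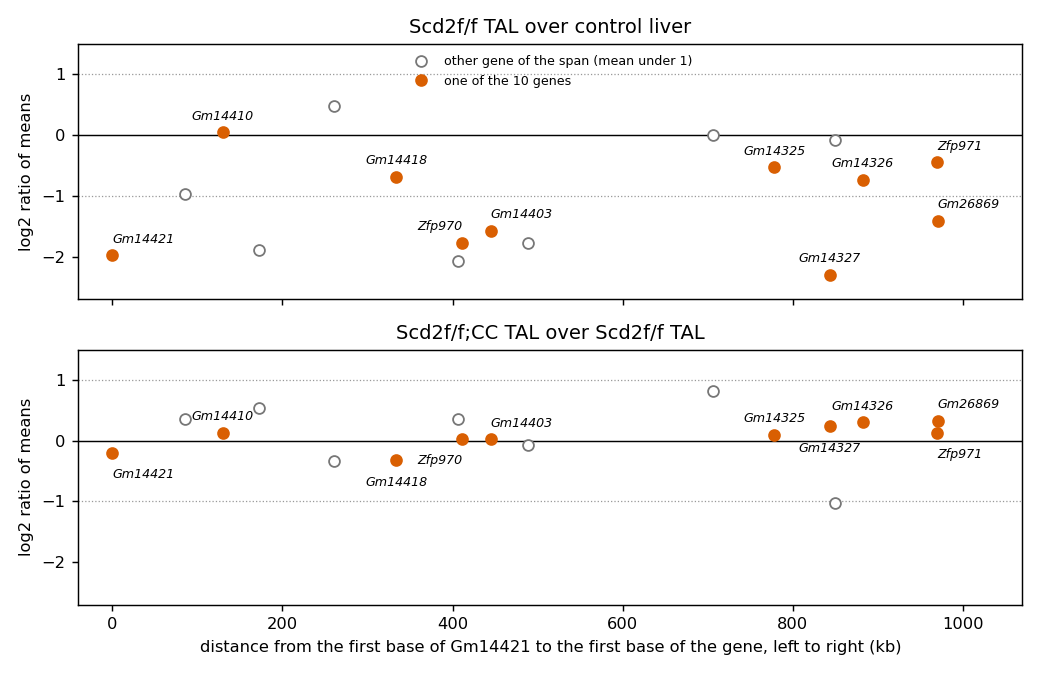
Log2 ratio of group means against the distance along the chromosome in kb, for the 10 genes (filled) and the 7 other genes of the span with a mean over the 3 groups under 1 (open), as Scd2f/f TAL over control liver (top) and Scd2f/f;CC TAL over Scd2f/f TAL (bottom), with dotted lines at a 2-fold difference. In the top panel 5 filled points lie below the lower dotted line with genes of smaller difference among them, and in the bottom panel the filled points lie between -0.32 and 0.32.

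Along the span, genes with large and small differences lay among each other. Gm14410 and Gm14418, with Scd2f/f TAL to control log2 ratios of 0.05 and -0.69, lay between Gm14421 at -1.98 and Zfp970 at -1.77. Gm14325 at -0.53 and Gm14326 at -0.74 flanked Gm14327 at -2.30. Of these genes, Gm14410, Gm14421, Gm14325, Gm14326 and Gm14327 each shared at least 70.3% of their 75-base stretches with other genes, and Gm14418 45%. Their ratios thus depend on how reads were divided among copies. The 7 other genes of the span had means over the 3 groups under 1 and are given as values. Gm14414, a processed pseudogene, had means of 0.146 in control liver and 0.0348 in Scd2f/f TAL, the lowest mean in the table. The pseudogenes Gm14400 and Gm16363 had log2 ratios of Scd2f/f TAL to control liver of -1.89 and -1.77, and Gm14416 one of -0.96. Of the protein-coding genes, Gm14412 had a log2 ratio of 0.48, Gm14322 of 0.01 and Zfp972 of -0.08. Zfp972 had means of 0.306 in Scd2f/f TAL and 0.151 with the deletion, and Gm14322 of 0.592 and 1.04. With 1 added to each mean, 0 of the 7 were at least 2-fold lower in Scd2f/f TAL than in control liver, against 3 without it.

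Beyond the span, the table held 29 more genes of the same stretch of chromosome 2, from Gm14393, which starts at 175061549, to Zfp931, which ends at 178078476, a range chosen after the values were seen. Of these, 28 had a lower mean in Scd2f/f TAL than in control liver, 4 of them at least 2-fold, against 4.69% of all genes, with a median log2 ratio of -0.68. Only 19 were expressed, of which 18 were lower and 3 at least 2-fold lower, beside 46.7% and 2.89% of expressed genes. The 29 hold both pairs with equal means, Zfp967 with Zfp969 and Gm11007 with Gm2007, and several share sequence with the 10 genes. They are therefore not 29 separate observations, and nothing is read from these counts. Among the expressed ones the largest difference belonged to Gm14387, an unprocessed pseudogene with means of 11.5 for control liver, 2.48 for Scd2f/f TAL and 2.39 for Scd2f/f;CC TAL. That gene shared 46.1% of the 75-base stretches of Gm14421, whose means were 10.2, 2.59 and 2.25. Zfp931, the last of them, just past the end of the span, had means of 6.74, 3.58 and 3.40. Of the 5 genes of the cluster under 2-fold, Gm14326 at -0.74 and Gm14418 at -0.69 were below this median, and Gm14325 at -0.53, Zfp971 at -0.45 and Gm14410 at 0.05 above it.

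Zinc finger genes outside the span had medians nearer to 0. Genes whose GENCODE coding parts match the strict KRAB pattern and at least 3 fingers numbered 166 in the table outside the span. Of these, 129 had a lower mean in Scd2f/f TAL than in control liver and 36 a higher one, with a median log2 ratio of -0.21. At least 2-fold lower were 5, against 4.69% of all genes. The 157 of them that lie away from this end of chromosome 2 had a median of -0.20, with 121 lower and 35 higher. Expressed were 118 of the 166, and 98 of these were lower, beside the 46.7% of expressed genes. With the deletion, 107 of the 166 were higher than in Scd2f/f TAL and 56 lower, with a median log2 ratio of 0.12. The 322 genes outside the span named Zfp and a number had median log2 ratios of -0.10 for Scd2f/f TAL to control liver and 0.08 for the deletion. The median of the 10 genes in the first of these comparisons, -1.08, was below both.

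**Figure D4:**
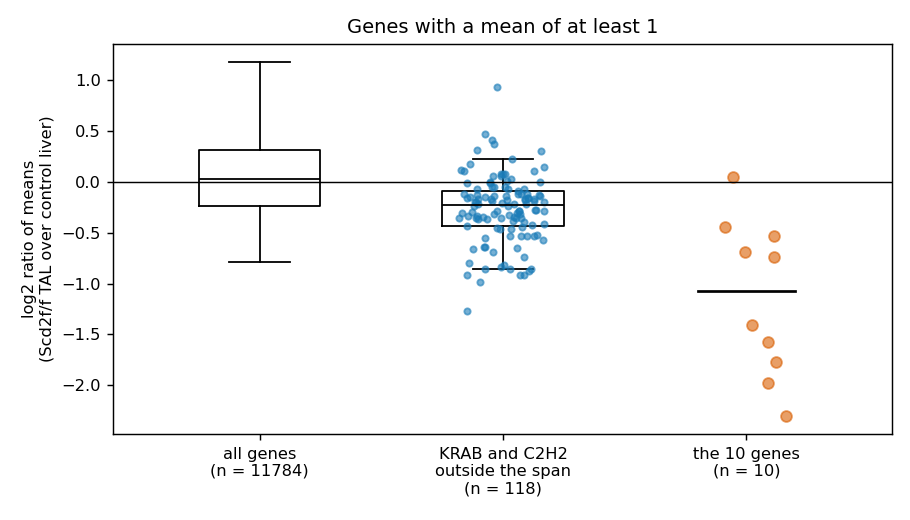
Log2 of the Scd2f/f TAL mean over the control mean (vertical axis) for all expressed genes, those with KRAB and C2H2 matches outside the span, and the 10 genes, with points for single genes in the last 2 sets. Boxes give the median and quartiles and whiskers the 5th and 95th percentiles, the line at the 10 genes is their median, and the medians are 0.03, -0.23 and -1.08.

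The factors with which KRAB zinc finger proteins act had means closer together. Of 28 listed genes 27 were in the table, 16 higher and 11 lower in Scd2f/f TAL than in control liver, where 52.7% of expressed genes were higher. At least 2-fold higher were 0, against 9.37% of all genes, and at least 2-fold lower 0, against 4.69%. The log2 ratios ran from -0.41 to 0.93 with a median of 0.06. Trim28, the corepressor, had means of 20.3 for control liver, 20.8 for Scd2f/f TAL and 20.5 for Scd2f/f;CC TAL. Setdb1, the methyltransferase it recruits, had means of 14.0, 13.3 and 14.2. With the deletion, 14 of the 27 were higher than in Scd2f/f TAL and 13 lower, with a median of 0.01. At least 2-fold were 0 in either direction, against 1.82% of all genes higher and 4.07% lower. With 27 genes, counts of 0 beside such shares are not read as a result.

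The genes whose pattern was most like the median of the 10 were no zinc finger genes. Likeness was the distance between the 2 log2 ratios from 3 group means, here -1.08 and 0.11, over 11774 other expressed genes. The nearest were Syvn1 (an E3 ubiquitin ligase of the endoplasmic reticulum), Cldn14 (a tight junction claudin), Rpl10a-ps1, Gm6472 and Tomm20 (a receptor of the mitochondrial outer membrane), at distances from 0.014 to 0.034. Syvn1 had means of 55.7, 26.2 and 28.2 in control liver, Scd2f/f TAL and Scd2f/f;CC TAL. In all, 151 genes lay within 0.25 of this point. Among genes named Zfp and a number, the nearest were Zfp341, Zfp979, Zfp324, Zfp968 and Zfp870, at distances from 0.15 to 0.25, and of these Zfp968 lies in the same stretch of chromosome 2. A pattern over 3 means is shared by many genes, so this likeness is a description.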

How the data were processed

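Total RNA was isolated with the PicoPure kit and polyadenylated RNA was sequenced after TruSeq RNA v2 preparation, from 3 mice per group. The submitters' processing notes name STAR 2.6.1, Partek 6 and mm10. The authors quantified reads per gene of Gencode M3 with the Partek E/M method, normalized counts to the upper quartile and ran Partek Gene Specific Analysis. The deposited table holds 1 signal a group, the least-squares mean over its mice, printed to 3 significant digits. Its 8 columns of p-values, FDR, ratios and fold changes of the authors' comparisons were not used, and 0 columns of per-sample values were left aside.

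Ratios were taken between group means with no pseudocount, and a difference counted at 2-fold, beside the share of all genes past the same limit. No test was run: the group means hold no spread between mice, and the authors' test results were set aside. The members and gene lists were chosen with earlier results of these data known. The end of each gene was set 1 base before the table's Stop, which matched GENCODE M21 for all 10 members in start and end. A table of proteins was not used here, so KRAB boxes and fingers (2 cysteines 2 to 4 residues apart and 2 histidines 3 to 5 apart, with 12 residues between) were counted in translated GENCODE M21 coding parts. Promoters (250 bases before to 50 after the start) came from RefSeq on GRCm38.p6, which lists 6 of the 10. Transcript pairs were aligned with BLAST 2.17.0. Named were the 10 members, all genes of the span, Scd2, Trim28, Setdb1 and the 5 nearest genes by pattern among all genes and among Zfp genes; Gm14387, Gm14393, Zfp931 and the pairs with equal means were named after their values were seen. The ratio step was tested on simulated data. The software was Python 3.11.15, NumPy 2.4.6, pandas 2.3.3 and Matplotlib 3.10.9.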

Additional observations from a re-analysis of the deposited data

How the results depend on the processing

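The medians and 2-fold counts of the 10 genes in the 3 comparisons, and those of the other genes of the span, the Zfp-named genes, the KRAB repressor machinery and the genes with KRAB and C2H2 matches in Scd2f/f TAL against control liver, were recomputed with pseudocounts of 0.1 and 1, centring, limits of 1.5-fold and 3-fold, genes with a mean of at least 1 alone, and sums over genes. Of 117 such values, 96 moved by no more than 1.5 times (for medians, in the fold itself), 21 moved more and 0 changed direction while past 2-fold. Some of the 96 could not move. All 10 genes pass the filter at a mean of at least 1, and a count of 0 at 2-fold stays 0 at 3-fold. A change of direction could be recorded only for log2 ratios past 2-fold, those of the 10 genes in the comparisons with control liver. No paired analysis was possible because the columns hold group means without replicate numbers, and for the same reason no replicate could be left out. At 3-fold, the count of the 10 genes lower than control liver was 3 in place of 5 for Scd2f/f TAL, and 3 in place of 6 for Scd2f/f;CC TAL. The count of 6 for Scd2f/f;CC TAL became 5 with a pseudocount of 0.1 and 4 with a pseudocount of 1. Shares of all genes past limits other than 2-fold were not counted. For the other genes of the span in Scd2f/f TAL against control liver, a pseudocount of 1 changed the median log2 ratio from -0.96 to -0.15 and the count of lower genes from 3 to 0, and since all 7 have means over the 3 groups under 1, none is left under the filter. In that comparison the counts of higher Zfp-named genes were 3, then 0 with a pseudocount of 1, 24 at 1.5-fold, 0 at 3-fold and 0 with a mean of at least 1, and those of lower ones were 5, then 3 with a pseudocount of 0.1, 1 with a pseudocount of 1, 36 at 1.5-fold, 1 at 3-fold and 2 with a mean of at least 1. The KRAB repressor machinery had 3 higher genes at 1.5-fold, in place of 0. For genes with KRAB and C2H2 matches, the count of higher genes was 1, then 0 with a pseudocount of 1, 7 at 1.5-fold and 0 with a mean of at least 1, and that of lower ones was 5, then 0 with a pseudocount of 1, 29 at 1.5-fold, 1 at 3-fold and 1 with a mean of at least 1. The cause of these shifts was not tested. The flanking genes of chromosome 2, the marker sums and the lists other than the 10 genes under the deletion were not recomputed. The log2 ratio of the summed members in Scd2f/f TAL was -1.43, and -0.99 without Zfp970 and Gm14403, an alternative chosen after seeing the data. Depth and the spread between mice are unknown and limit every value.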
